A study of Mus musculus with 2 samples.

Results

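Sall1, Sall2, Sall4 and Zbtb16 are 4 zinc finger transcription factor genes, and each was found by its symbol as 1 row among the 26893 named genes of both libraries. The 2 libraries were made by droplet single-cell RNA sequencing from cultured mouse undifferentiated spermatogonia, a population in which the germline stem cells reside. The first held cells 24 h after transfection with 75 pmol of an siRNA to Chd4, which encodes an ATPase subunit of NuRD, and 2 µL Lipofectamine on plastic. The second held cells given a non-targeting control siRNA in the same way. All cells came from adult C57BL/6 testes by THY1 selection and had been kept in serum-free medium with GDNF and bFGF on mitomycin-treated SNL76/7 feeder fibroblasts. Cells of 3 biological replicates were mixed in each group before capture, so each group was 1 library, the replicates could not be told apart, and no test across replicates was possible. Spermatogonia were taken off the feeder layer for transfection, but feeder cells were still present in both libraries.

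SALL proteins carry pairs of C2H2 zinc fingers and act largely as repressors. A short peptide at the amino terminus of SALL1 and SALL4 is known to recruit NuRD, a complex that remodels nucleosomes and removes histone acetyl groups. SALL4 is needed in early embryos, in embryonic stem cells and in the male germline, and it is expressed in undifferentiated and differentiating spermatogonia. SALL1 acts in kidney and limb development, and SALL2 is expressed in brain and many other tissues. Zbtb16 encodes PLZF, a BTB zinc finger repressor whose loss in luxoid mice leads to progressive exhaustion of spermatogonial stem cells. PLZF and SALL4 bind each other and are known to oppose each other in mouse spermatogonial progenitors.

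The first 36 coding bases of Sall2 and Sall4 are shown because this is where the NuRD-recruiting peptide is encoded. Codons in capitals encode the same amino acid in both genes. The sequences were taken from GENCODE M21 transcripts with the longest coding part (GRCm38, the assembly of mm10), and both genes lie on the minus strand.
Sall2: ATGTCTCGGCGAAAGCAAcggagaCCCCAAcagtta
Sall4: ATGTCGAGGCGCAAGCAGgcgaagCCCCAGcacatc

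Of the 12 codons, 8 encode the same amino acid in both genes, and 24 of the 36 bases are the same. These bases lie in exon 1 of Sall2 at chr14:52328140-52328175 and in exon 1 of Sall4 at chr2:168766994-168767029. Another Sall2 transcript and a Sall4 transcript with 645 coding bases begin differently, and each has 1 of the 12 amino acids shown for Sall4. The counts do not separate transcripts of a gene, so which start was used is not known from these data.

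In the files' annotation the members are ENSMUSG00000031665 (Sall1), ENSMUSG00000049532 (Sall2), ENSMUSG00000027547 (Sall4) and ENSMUSG00000066687 (Zbtb16). In GENCODE M21, Sall4 spans chr2:168748332-168767943, Sall1 chr8:89027235-89044162, Sall2 chr14:52311172-52328762 and Zbtb16 chr9:48654297-48836222, all on the minus strand. The only gene annotated there that overlaps a member is Gm14261, a noncoding transcript on the opposite strand at the 5′ end of Sall4. It was not analysed here. Whether strand was used in counting is not stated in the sources, so reads from that overlap could not be assigned with certainty.

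After removal of 2 and 0 cells under 1000 UMIs (unique molecular identifiers, 1 count per captured transcript), the remaining cells of 860 in the Chd4 siRNA library and 816 in the control library were divided by their marker UMIs. A cell was a germ cell when Dazl plus Ddx4 exceeded Col1a1 plus Fn1, and a feeder cell in the opposite case. This gave 760 and 728 germ cells, 89 and 79 feeder cells, and 9 and 9 cells with equal sums. Germ cells had medians of 15581.5 and 15282 UMIs and feeder cells 40805 and 38655. Markers outside the rule differed in the same direction, as the 7 measured germ cell markers summed to 1338 and 1248 CPM (UMIs scaled to a total of 1000000 in the class) in germ cells against 49.3 and 58.6 CPM in feeder cells. The 8 fibroblast markers stood at 30.6 and 27.7 CPM in germ cells and 2512 and 2296 CPM in feeder cells. Of the other cell types that a testis preparation could hold, 4 Leydig cell markers summed to 1.80 and 2.50 CPM in germ cells, with 3 of the 4 at 0 in both libraries, and 6 Sertoli cell markers to 18.9 and 18.6 CPM. Macrophage markers summed to 15.3 and 14.0 CPM there, nearly all from Cd68, and endothelial markers to 12.2 and 12.4 CPM. In feeder cells the Sertoli cell markers summed to 265.3 and 253.9 CPM, mostly from Sox9 and Rhox5, with Amh at 1 and 4 UMIs and Wt1 at 1 and 0. What part such cells have in the members' values was not tested. The barcode lists held 799 (Chd4 siRNA) and 817 (control) entries and had 1 in common. The Chd4 siRNA list was shorter than its 860 cells, so this overlap does not cover all of them. All intervals are at 95%. Those of UMI counts cover counting error only and leave out further spread between cells. Those of shares of cells cover the sampling of cells within a library. Higher and lower compare the 2 libraries.

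The siRNA target was lower in both classes. Germ cells held 3098 Chd4 UMIs in the Chd4 siRNA library and 6218 in the control library, a log2 ratio of -1.08 (-1.15 to -1.02). Feeder cells held 191 and 491 Chd4 UMIs, a log2 ratio of -1.55 (-1.80 to -1.30).

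Of the SALL genes, Sall4 was the one with most transcripts in germ cells, and it was lower after Chd4 siRNA. Its 489 UMIs in Chd4 siRNA germ cells came to 39.9 CPM (36.5 to 43.6), against 572 UMIs or 49.3 CPM (45.3 to 53.5) in control germ cells. The counting intervals of the libraries did not overlap. Chd4 siRNA over control gave 0.810 (0.716 to 0.915), which is -0.30 (-0.48 to -0.13) on the log2 scale. Over the 8257 genes with at least 200 UMIs in germ cells the median log2 ratio was 0.05, which placed Sall4 0.35 below the median. Of these genes, 4.32% lay at the value of Sall4 or lower. At any fold, the interval of the log2 ratio lay below 0 for 696 of the 8257 genes and above 0 for 1566. Sall4 was past 1.2-fold lower with an interval below 0, a mark that 378 of the 8257 genes, or 4.58%, met. Of the 4 members, Sall4 and Zbtb16 had 200 UMIs, and Sall4 was the 1 past this mark. Another 529 genes, or 6.41%, were past 1.2-fold in the higher direction, and with TMM factors the lower and higher groups were 543 and 320 genes. Under these factors the log2 ratio of Sall4 was -0.35.

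Zbtb16 had 1287 UMIs in Chd4 siRNA germ cells, or 105.1 CPM (99.4 to 110.95), and 1182 UMIs or 101.8 CPM (96.1 to 107.8) in control germ cells. Its log2 ratio was 0.04 (-0.07 to 0.16), so a change beyond 1.2-fold in either direction lay outside the counting interval. Since Zbtb16 and Sall4 were counted in the same cells, their proportion does not depend on how libraries are scaled. Sall4 made up 27.5% (25.5 to 29.7, Clopper-Pearson) of the Sall4 and Zbtb16 UMIs in Chd4 siRNA germ cells and 32.6% (30.4 to 34.9) in control germ cells.

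Sall1 was scarce in germ cells. It had 77 UMIs in Chd4 siRNA germ cells, or 6.29 CPM (4.96 to 7.86), and 71 UMIs or 6.12 CPM (4.78 to 7.72) in control germ cells. The log2 ratio was 0.04 (-0.45 to 0.52), or a ratio between 0.734 and 1.44, so a difference as small as that of Sall4 was not detectable for Sall1 at this depth. With 68 of 760 and 59 of 728 germ cells carrying a UMI, no cell had more than 3.

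Sall2 was the only member with a higher level in feeder cells than in germ cells. Germ cells held 7 Sall2 UMIs in the Chd4 siRNA library, or 0.571 CPM (0.23 to 1.18), and 2 in the control library, or 0.172 CPM (0.021 to 0.623). Both counts are too small for a ratio. Feeder cells held 18 and 6 Sall2 UMIs, or 4.99 CPM (2.96 to 7.89) and 1.89 CPM (0.694 to 4.11). The feeder level exceeded the germ level by a log2 ratio of 3.13 (1.80 to 4.63) in the Chd4 siRNA library. In the control library it was 3.46 (0.97 to 6.80), from only 6 feeder and 2 germ cell UMIs. In feeder cells the log2 ratio of Chd4 siRNA over control was 1.40 (0.0057 to 3.02), an interval that barely leaves out 0. When 14 and 12 feeder cells with at least 3 UMIs of both marker sums were left out, the value was 1.33 (-0.08 to 2.97).

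**Figure D1:**
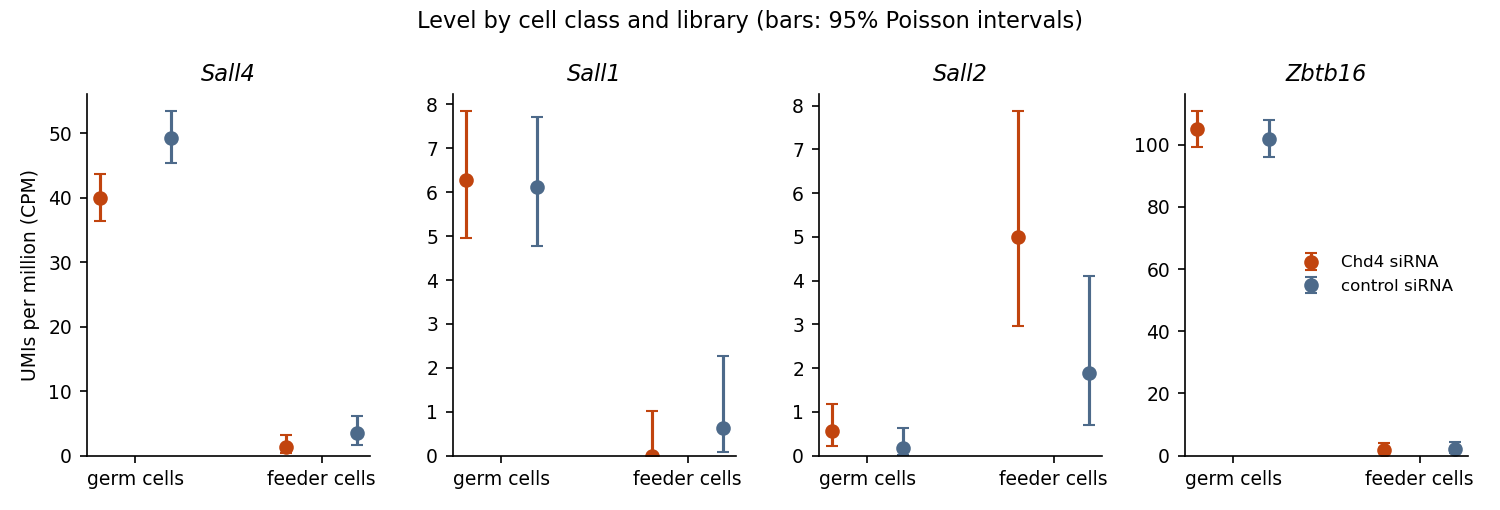
CPM of each member in germ and feeder cells, with 1 point per library and 95% Poisson intervals as bars, each panel on its own axis from 0. Sall4 (39.9 and 49.3 CPM) is the one member whose germ cell intervals do not overlap between Chd4 siRNA and control siRNA, and Sall2 is the one that is higher in feeder cells.

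In feeder cells the other members stood at a small share of their germ cell level, as germ cell markers did. Whether those UMIs came from free RNA, mixed droplets or the feeder cells was not tested. The 7 germ cell markers were found in feeder cells at 1.22% to 4.82% of their germ level in the Chd4 siRNA library and at 3.84% to 5.80% in the control library. Zbtb16, with 7 and 7 feeder UMIs, stood at 1.85% and 2.17% of its germ level. Sall4, with 5 and 11 feeder UMIs, stood at 3.47% and 7.03%, or 1.39 CPM (0.45 to 3.23) and 3.47 CPM (1.73 to 6.20). The control value is above the range of the markers and rests on 11 UMIs. Sall1 had 0 UMIs in Chd4 siRNA feeder cells, where 3 counts would be 0.832 CPM, and against that floor its germ cell level was at least 7.56-fold higher. The 95% counting limit on its log2 ratio of feeder over germ cells was -2.58, a less strict bound. In control feeder cells it had 2 UMIs, or 0.63 CPM (0.076 to 2.28), which is 10.3% of its germ level and above the range of the markers. No log2 ratio between the libraries was taken for these counts under 20.

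**Figure D2:**
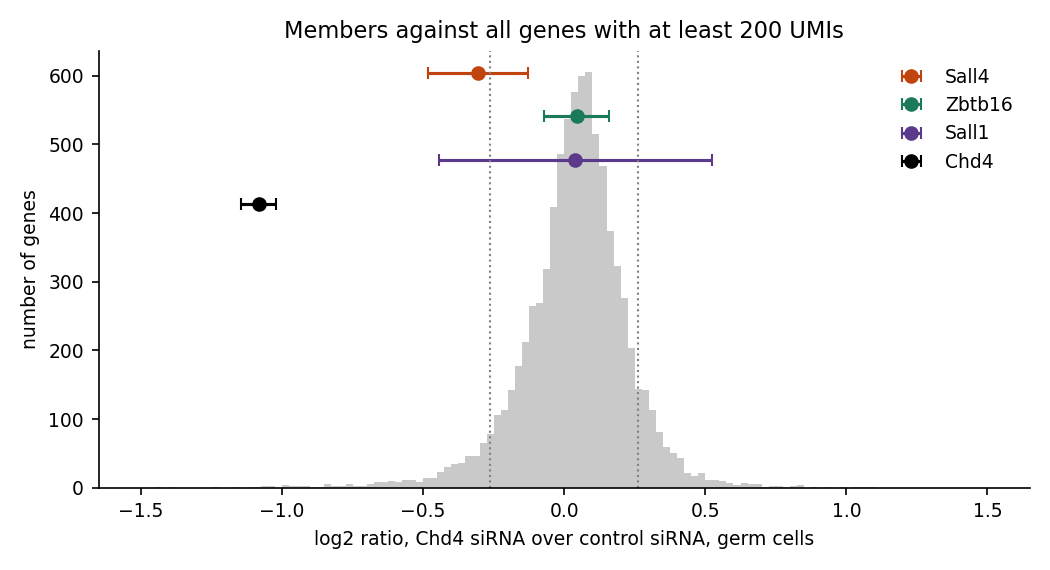
Histogram of the log2 ratio of Chd4 siRNA over control siRNA in germ cells for 8257 genes with at least 200 UMIs (values beyond 1.5 are drawn at 1.5), with 3 members and Chd4 as points with 95% counting intervals and dotted lines at 1.2-fold. Sall4 at -0.30 lies in the lower flank, Zbtb16 and Sall1 at 0.04 lie at the centre, and Chd4 lies at -1.08.

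The share of cells with a transcript depends on depth, so each cell was thinned to 9000 UMIs, which left out 63 and 62 shallower germ cells and 5 and 4 feeder cells. Sall4 was seen in 205 of 697 Chd4 siRNA germ cells, or 29.4% (26.1 to 32.9), and in 231 of 666 control germ cells, or 34.7% (31.1 to 38.4). The difference was -5.27 percentage points (-10.2 to -0.32). That interval depends on the draw. A second draw gave -5.40 points (-10.3 to -0.46). Averaged over all possible draws the difference was -4.09 points. An interval taken at these average counts, as if from 1 draw, was -8.98 to 0.856 and included 0. It was -3.95 points (-9.06 to 1.18) with a 5-fold margin between the marker sums and -2.84 points (-6.78 to 1.09) at 5000 UMIs. Before thinning, 42.2% of Chd4 siRNA and 48.6% of control germ cells carried Sall4, a difference of -6.39 points (-11.4 to -1.33). In feeder cells 0 of 84 and 2 of 75 thinned cells carried a Sall4 UMI. For the count of 0 the floor of 3 counts is 3.57% and the Clopper-Pearson limit 4.30%.

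Zbtb16 was seen in 383 of 697 thinned Chd4 siRNA germ cells, or 54.9% (51.2 to 58.7), and in 377 of 666 control germ cells, or 56.6% (52.7 to 60.4). Before thinning, 72.5% and 73.5% carried it. The thinned difference of -1.66 points (-6.91 to 3.61) included 0. In thinned feeder cells 1 of 84 and 0 of 75 carried a Zbtb16 UMI, and for 0 of 75 the floor of 3 counts is 4.0% and the Clopper-Pearson limit 4.80%. Sall1 was seen in 33 and 31 thinned germ cells, or 4.73% and 4.65%, and in no thinned feeder cell of either library. Sall2 was seen in 3 of 697 and 0 of 666 thinned germ cells and in 6 of 84 and 0 of 75 thinned feeder cells, with the same limits for 0 of 75 as for Zbtb16.

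Transcripts were spread over many germ cells rather than held by a few. At equal depth, 2 or more Sall4 UMIs were found in 7.75% (5.87 to 9.99) of Chd4 siRNA germ cells and 10.1% (7.88 to 12.6) of control germ cells, and 3 or more in 2.01% and 1.95%. Of single cells at equal depth, the highest held 3 Sall4 UMIs in the Chd4 siRNA library and 5 in the control library. For Zbtb16, 23.7% and 24.0% of cells held 2 or more UMIs and 10.0% and 8.11% held 3 or more. The variance of UMIs per cell over their mean, which is 1 for random sampling of equal cells, was 1.21 and 1.25 for Sall4 and 1.35 and 1.23 for Zbtb16. Random sampling at the same means would give shares of cells with a UMI of 32.4% and 38.0% for Sall4 and 60.9% and 60.4% for Zbtb16, a few points above those seen.

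**Figure D3:**
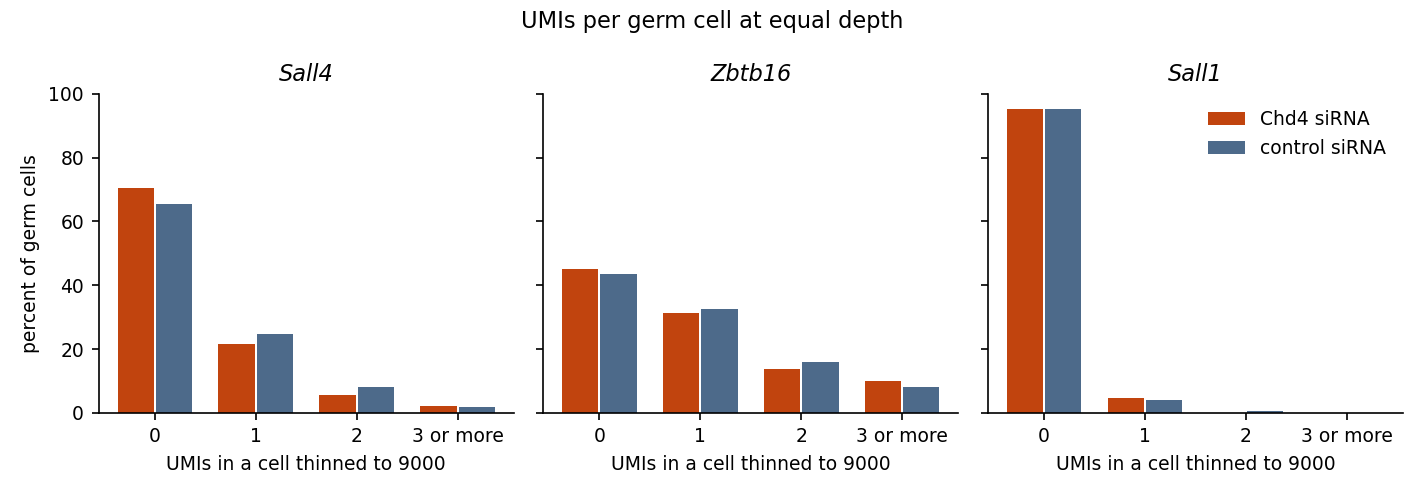
Percent of germ cells, thinned to 9000 UMIs, that hold 0, 1, 2 or 3 or more UMIs of Sall4, Zbtb16 and Sall1, with a pair of bars per class for Chd4 siRNA (697 cells) and control siRNA (666 cells). For Sall4 the bar at 0 is higher under Chd4 siRNA (70.6% and 65.3%), while the Zbtb16 and Sall1 bars at 0 are close (45.1% and 43.4%, 95.3% and 95.3%).

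At 9000 UMIs, Sall4 and Zbtb16 were found together about as often as their separate shares predict. Both were seen in 115 of 697 thinned Chd4 siRNA germ cells, or 16.5% (13.8 to 19.5), and the product of the separate shares was 16.2%. In control germ cells both were seen in 131 of 666, or 19.7% (16.7 to 22.9), and the product was 19.6%. Among Chd4 siRNA cells, 56.1% of those with Sall4 and 54.5% of those without it carried Zbtb16, a difference of 1.63 points (-6.48 to 9.58). Among control cells the shares were 56.7% and 56.6%, a difference of 0.158 points (-7.75 to 7.96). Averaged over all draws the differences were 2.13 and 0.936 points. They moved with depth, to 8.63 (-0.81 to 18.2) and 5.40 (-3.47 to 14.6) points at 5000 UMIs and 5.54 (-0.90 to 11.8) and 5.97 (-0.45 to 12.3) points without thinning. With a 5-fold margin between the marker sums they were 1.51 and -2.69 points, and each of these intervals included 0. Differences within these intervals were not detectable with these cells. A further 12.9% of Chd4 siRNA and 15.0% of control cells carried Sall4 alone, 38.5% and 36.9% Zbtb16 alone, and 32.1% and 28.4% neither.

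The few Sall1 cells showed no preference that could be seen at this depth. Of cells with Sall4, 8 of 205 in the Chd4 siRNA library and 10 of 231 in the control library carried Sall1, or 3.90% and 4.33%, against 5.08% and 4.83% of cells without Sall4. Of cells with Zbtb16, 5.48% and 3.98% carried Sall1, against 3.82% and 5.54% without. Every one of these differences had an interval that included 0.

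Levels were next compared between germ cells with and without a UMI of other regulators, in thinned cells. Id4, an inhibitor of DNA binding enriched in stem cells, gave the widest gap for Sall4 in the control library, Kit left aside for its few cells. In the Chd4 siRNA library Sall4 stood at 53.9 CPM in 68 cells with Id4 and at 42.4 CPM in 629 cells without it, a log2 ratio of 0.35 (-0.22 to 0.88). In the control library it stood at 87.7 CPM in 76 cells with Id4 and at 48.6 CPM in 590 cells without it, a log2 ratio of 0.85 (0.42 to 1.26). Zbtb16 went the other way in both libraries, at -0.30 (-0.73 to 0.11) and -0.18 (-0.58 to 0.20), with intervals that included 0. In cells with Id4 the log2 ratio of Sall4, Chd4 siRNA over control, was -0.70 (-1.36 to -0.07), from 33 and 60 UMIs, and in cells without Id4 it was -0.20 (-0.46 to 0.06). For Pou5f1, the gene of the pluripotency factor OCT4, the order was the other way, with -0.06 (-0.44 to 0.32) in cells with it and -0.45 (-0.76 to -0.14) in cells without. The intervals overlap for both genes, and the differences between them were not tested. Id4 and Pou5f1 had the widest gaps of the genes compared, again without Kit. The values in cells with and without the gene were -0.36 and -0.25 for Nanos2, -0.30 and -0.28 for Etv5 and -0.31 and -0.27 for Lhx1. They were -0.31 and -0.27 for Sohlh1 and -0.25 and -0.18 for Chd4.

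With Nanos2, which encodes a translational repressor that keeps spermatogonia undifferentiated, Sall4 had log2 ratios of 0.28 (-0.20 to 0.74) and 0.40 (0.0091 to 0.78) for cells with over cells without, and Zbtb16 had 0.17 and 0.24 with intervals that included 0. With Pou5f1 the values were 0.42 (0.06 to 0.77) and 0.03 (-0.31 to 0.37) for Sall4 and 0.27 (0.04 to 0.49) and 0.23 (-0.0093 to 0.47) for Zbtb16. With Sohlh1, a helix-loop-helix factor of spermatogonial differentiation, all 4 values were positive, from 0.10 to 0.28, and the interval of Zbtb16 in the control library left out 0. Etv5 and Lhx1, which respond to GDNF, gave values from -0.05 to 0.16 with intervals that included 0. Kit, a receptor of differentiating spermatogonia that PLZF represses, was seen in 5 and 7 thinned cells, too few to compare. With Chd4 itself, Sall4 had 0.22 (-0.23 to 0.70) and 0.30 (-0.65 to 1.44), and Zbtb16 had 0.34 (0.04 to 0.65) and 0.73 (-0.05 to 1.65), the second of each from only 23 control cells without Chd4.

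Cells with many mitotic transcripts had lower CPM of Sall4 and Zbtb16 than cells with few in both libraries, with an interval that left out 0 in 1 library for each gene. The cells were taken from the upper and lower end of the summed UMIs of 9 mitotic genes such as Top2a and Mki67, over 5 and at most 2 UMIs. Sall4 stood at 33.4 CPM in 216 upper cells and at 49.5 CPM in 312 lower cells of the Chd4 siRNA library, a log2 ratio of -0.57 (-1.01 to -0.13). In the control library it stood at 42.5 CPM in 230 upper cells and at 54.4 CPM in 288 lower cells, or -0.36 (-0.76 to 0.04). For Zbtb16 the values were -0.15 (-0.42 to 0.12) and -0.34 (-0.62 to -0.07). Sall1 stood at 7.20 and 3.56 CPM in the Chd4 siRNA library and at 7.73 and 4.24 CPM in the control library, with intervals that included 0. These ends are ranges of a score, not cell types, and 576 cells lay within 1 UMI of the lower limit and 219 within 1 UMI of the upper.

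**Figure D4:**
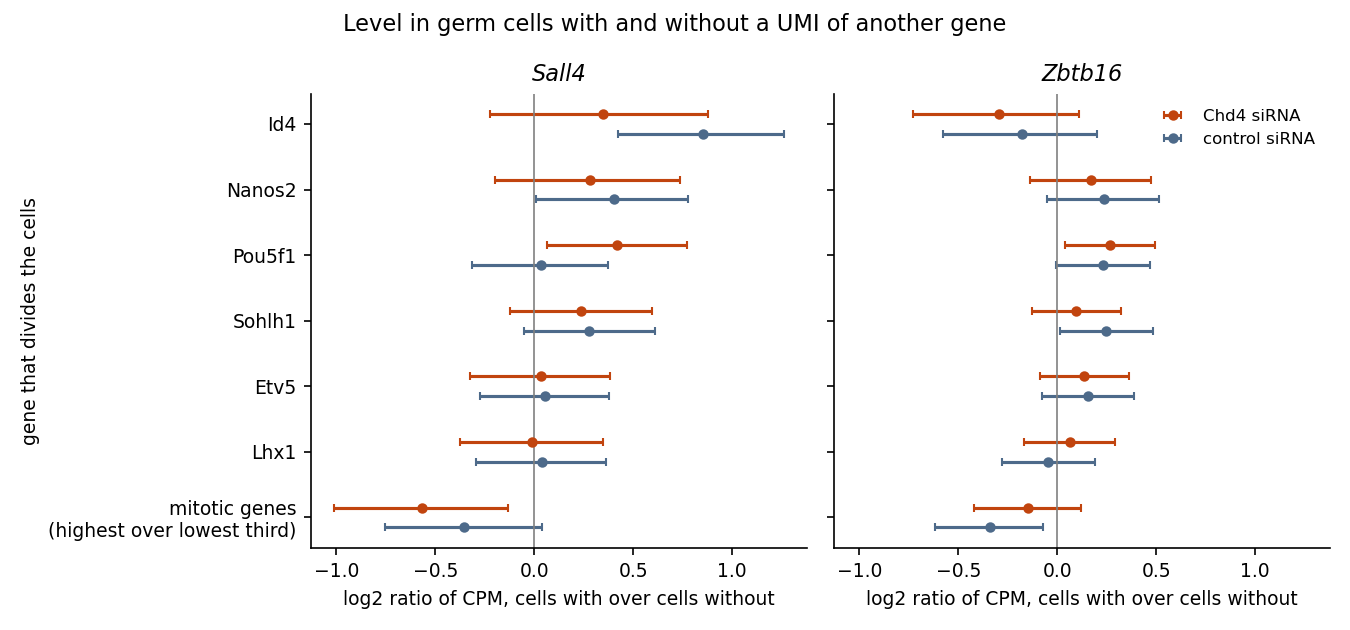
Log2 ratio of the CPM of Sall4 and Zbtb16 in thinned germ cells with over without a UMI of 6 other genes, and in the upper over the lower end by mitotic UMIs, for each library with 95% counting intervals. Sall4 was higher with Id4 in the control library (0.85), and both genes lie below 0 for mitotic transcripts in both libraries.

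The depth of a cell moved with these levels. Germ cells were divided at 13543 and 17348 UMIs, and Sall4 stood at 46.0, 47.3 and 32.1 CPM from the shallowest to the deepest cells of the Chd4 siRNA library and at 51.3, 55.8 and 43.7 CPM in the control library. Zbtb16 stood at 120.5, 111.8 and 93.5 CPM and at 112.8, 106.4 and 93.2 CPM. Both genes were thus lowest in CPM in the deepest cells of both libraries. Sall4 was lower after Chd4 siRNA at each depth, by log2 ratios of -0.16 (-0.53 to 0.21), -0.24 (-0.53 to 0.05) and -0.45 (-0.73 to -0.16), and only the last interval left out 0. Zbtb16 stood at 0.09, 0.07 and 0.0056 with intervals that included 0. The part of cell size or cycle in the Sall4 difference was not tested.

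**Figure D5:**
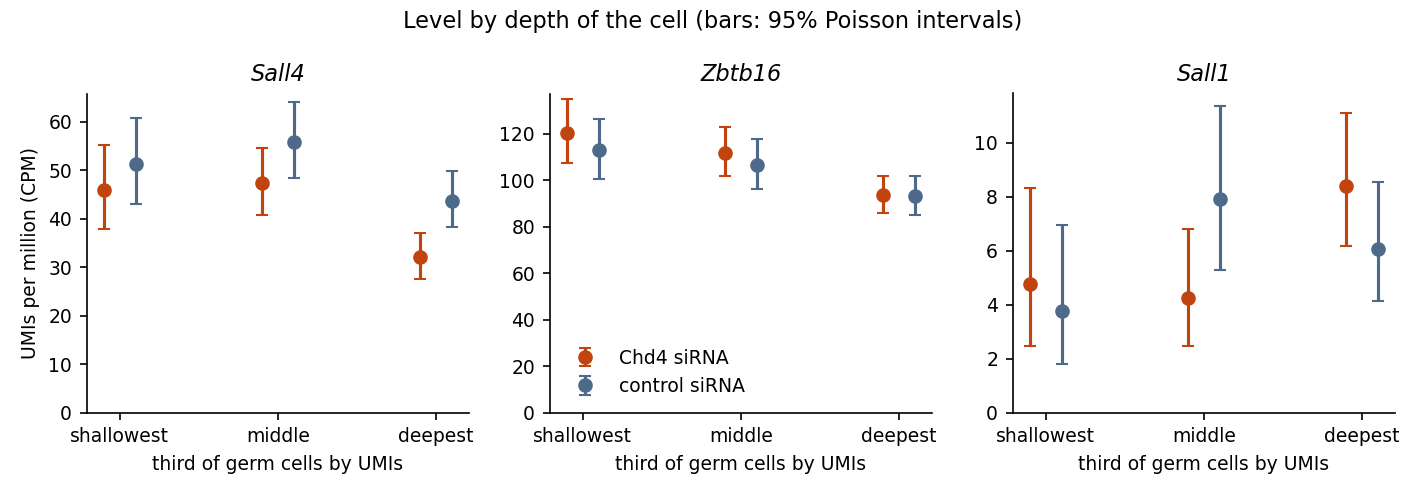
CPM of Sall4, Zbtb16 and Sall1 in germ cells divided at 13543 and 17348 UMIs per cell, with 1 point per library and 95% Poisson intervals. Sall4 under Chd4 siRNA lies below control at each depth (32.1 and 43.7 CPM in the deepest cells), while the Zbtb16 points lie close together.

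Genes that varied with a member across cells were sought over 8256 candidates in thinned germ cells, by the lower of the 2 libraries' Pearson correlations of log(1 + UMIs). The most like Sall4 were Actb, cytoplasmic actin, with r of 0.15 in the Chd4 siRNA library and 0.11 in the control library, Ttn with 0.10 and 0.10 and Prpf39 with 0.098 and 0.11. For Zbtb16 they were Rbbp6 with 0.15 and 0.14, Pygl, liver glycogen phosphorylase, with 0.11 and 0.12, and Taf7l, a germ cell paralog of a TFIID subunit, with 0.11 and 0.10. The correlation of Sall4 with Zbtb16 was 0.058 over 697 Chd4 siRNA cells and -0.015 over 666 control cells. All of these are weak, cells of 1 library share its capture and depth, and no gene stood out as following either member.

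The protein partners of SALL factors and PLZF were described from lists. Of 12 NuRD subunits, all with at least 200 germ cell UMIs, 2 were past 1.2-fold lower and 0 higher, beside 4.58% and 6.41% of all genes, with a median log2 ratio of 0.09 against 0.05 for all genes. The 2 were Chd4, the siRNA target, and its paralog Chd3 at -0.39 (-0.54 to -0.23). In feeder cells Chd3 had 67 and 255 UMIs, a log2 ratio of -2.11 (-2.52 to -1.72). In germ cells Gatad2a, a p66 subunit, stood at -0.15 and its paralog Gatad2b at 0.21 (0.08 to 0.34). Mta1, a metastasis-associated subunit, stood at 0.14 and Rbbp7, a histone-binding subunit, at 0.13. Of 8 corepressors and partners of PLZF 0 were past 1.2-fold in either direction, beside 4.58% lower and 6.41% higher of all genes, and the median was -0.05. A count of 0 among 8 genes is near that background. Ncor1, which encodes a nuclear receptor corepressor, was lowest at -0.12 (-0.25 to 0.0050), then the acetyltransferase gene Ep300 at -0.09 and the Polycomb gene Bmi1 at -0.07. The deacetylase gene Hdac3 was highest at 0.22 (0.06 to 0.37), followed by Sin3b, a corepressor scaffold, at 0.06 and the ubiquitin ligase gene Cul3 at -0.0046.

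Of 5 genes linked to PLZF or SALL4 as targets in mouse spermatogonia, 2 had 200 germ cell UMIs and neither was past 1.2-fold, where 4.58% of all genes were lower and 6.41% higher, so nothing is read from this count. Ddit4, an inhibitor of mTORC1 that PLZF activates, had 646 and 567 UMIs and a log2 ratio of 0.11 (-0.05 to 0.28). Dusp4, a MAP kinase phosphatase, had 278 and 256 UMIs and 0.04 (-0.21 to 0.29). Foxl1, a forkhead factor, had 30 and 40 UMIs and -0.49 (-1.23 to 0.23), and Kit had 12 and 17 UMIs and -0.58 (-1.78 to 0.57). Sall1, the remaining gene, was given above. Kit was in 0.717% and 1.05% of thinned germ cells and had 0 UMIs in feeder cells.

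Zbtb16 belongs to the BTB zinc finger family, of which 43 genes had a row. On the CPM scale, which counts 1 tag per transcript and is not divided by length, Zbtb16 ranked second of the 43 in germ cells of both libraries. Zbtb20 ranked first with 135.9 and 117.0 CPM, and Bcl6b, which encodes a GDNF-induced transcriptional repressor that supports spermatogonial stem cell maintenance, was next with 80.2 and 79.8 CPM. Of 31 family members with 200 UMIs, 1 was past 1.2-fold lower and 2 were higher, against 4.58% and 6.41% of all genes, and the median log2 ratio was 0.06. Zbtb17, which encodes the MYC partner MIZ1, was lower at -0.35 (-0.62 to -0.09). Zbtb37 at -0.20 and Zbtb11 at -0.13 followed with intervals that included 0. Zbtb33, which encodes Kaiso, was higher at 0.33 (0.05 to 0.62) and Hic2 at 0.29 (0.11 to 0.48), with Zbtb14 at 0.27 (-0.09 to 0.63). With TMM factors neither Zbtb33 at 0.29 (-0.00069 to 0.57) nor Hic2 at 0.24 (0.06 to 0.43) was past the mark, while Zbtb17 was.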

How the data were processed

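The authors deposited raw UMI counts per gene and cell, whole numbers per the file headers. Per the submitters' processing notes, the tools were Cell Ranger 2.1.0 and Seurat and the genome build was mm10, without a role for each. The sources state no filter on cells made ahead of deposit. Names were held for 26893 of 27998 rows. The other 1105 rows, 12.6% (Chd4 siRNA) and 12.1% (control) of UMIs, stayed out of totals, and genes there were not analysed here. Each matrix ends inside its last cell, which was left out. Cells under 1000 UMIs were removed. No doublet caller was run, and cells with UMIs of both marker sets were left out as an alternative.

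UMIs were summed per class and library (germ cells 12251236 and 11605456, feeder cells 3607230 and 3174545) and divided by the total. Intervals are exact Poisson, Clopper-Pearson or conditional binomial, and Newcombe for differences of shares, at 95%. They leave out variation between cultures, because cells of 1 library are no replicates. Log2 ratios have Chd4 siRNA on top. Past the fold means beyond 1.2-fold with an interval that leaves out 0, among genes with at least 200 UMIs in both libraries together. Named genes were the members, up to 3 genes from each end of each list, and the 3 genes most like each member. A gene and a sequence are not reported here. Members and lists were chosen with earlier results of these data known. The division by depth, the shares of Sall4 and Zbtb16 UMIs and the averages over all thinning draws were added after seeing the data. The ratio and thinning steps were tested on simulated data. Python 3.11.15, scipy 1.17.1 and, for TMM and RLE scaling factors only, edgeR 4.0.16 in R 4.3.3 were used.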

Additional observations from a re-analysis of the deposited data

How the results depend on the processing

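No paired analysis was possible because each group is 1 library, and no library could be left out. Over 10 alternatives each for scaling and choice of cells, the Sall4 log2 ratio in germ cells ranged from -0.35 to -0.27, with an interval below 0 wherever one was computed. Zbtb16 ranged from -0.0031 to 0.05 and Sall1 from -0.15 to 0.04. The Sall2 interval in feeder cells included 0 when cells with 3 or more UMIs of both marker sums were left out. In the other alternatives with an interval its lower limit was from 0.0028 to 0.35. Sall2 in feeder cells ranged from 1.33 to 1.61 over 9 alternatives, since thinning left 0 control UMIs and no ratio. The Sall4 share difference ranged from -6.39 to -2.84 points, with 0 inside the interval in 3 of 6 alternatives, that of Zbtb16 from -1.66 to 2.31 and that of Sall1 from -0.07 to 0.84, so the direction for Zbtb16 and Sall1 depends on the setting. With Sall4 against without, the Zbtb16 share differed by 1.51 to 8.63 points in Chd4 siRNA cells and by -2.69 to 5.97 in control cells. With TMM factors, which lower every germ cell log2 ratio by 0.05, 320 in place of 529 genes were past 1.2-fold higher, 37.1% in place of 58.3% of all genes past it. By Spearman correlation 2 of the 3 genes most like Sall4 and 1 of those most like Zbtb16 were the same. No cell had 10 UMIs of both marker sums, so leaving such cells out changed nothing.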

Other observations

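The 9 Chd4 siRNA and 9 control cells with equal marker sums had medians of 5447 and 4763 UMIs. They held 3 and 3 Zbtb16 UMIs and 0 and 1 Sall4 UMIs, 0 and 1 Sall1 UMIs and no Sall2 UMI.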
